A study of Mus musculus with 9 samples.

Results

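The AP-1 and Egr immediate early factors were the 10 genes Fos, Fosb, Fosl1, Fosl2, Jun, Junb, Jund, Atf3, Egr1 and Egr2, taken as every probe set whose single platform symbol is 1 of these names. They were measured by 15 of the 45101 probe sets of the array (5 genes by 1 and 5 by several), and as 10 of 18193 genes once each gene was represented by its brightest probe set. All were followed in small intestinal mesenchyme of C57Bl/6J mouse embryos at E18.5 that was given Shh, Ihh or Vehicle for 24 h. Shh (Sonic hedgehog) and Ihh (Indian hedgehog) are secreted ligands of the hedgehog pathway, made by gut epithelium and sensed by the mesenchyme beneath it. Epithelium was removed from the tissue, the mesenchyme was cultured for 48 h on collagen in medium with fetal bovine serum, and the 6 wells of each treatment were pooled at random into 3 samples, which gave 9 Affymetrix arrays. No group carried an engineered allele, and the ligand doses and the make-up of Vehicle were not given in the sources used here. Replicates were pools of wells, and nothing says whether the wells came from separate litters, so the p-values measure the spread between these pools.

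Immediate early genes are transcribed within minutes of a stimulus such as serum, growth factors or stress, from regulators already present in the cell. Fos and Jun proteins pair through leucine zippers into AP-1, a dimer that binds a short palindromic DNA element in the control regions of genes for cytokines, proteases and growth factors. Egr1 and Egr2 are zinc finger factors induced by the same MAP kinase and SRF (serum response factor) signals, and the Nab proteins hold them in check. In fibroblasts and macrophages, both of which cultured gut mesenchyme can hold, these factors are known for their part in the responses to serum, wounding and inflammatory signals.

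Of the 10 factors, 4 were lower with the hedgehog ligands: Fos, Egr1, Junb and Fosl2. The other 6 factors (Fosb, Fosl1, Jun, Jund, Atf3 and Egr2) did not pass the test, and none of the 10 was higher. Fos was 1.45-fold lower and Egr1 1.44-fold lower with Shh and Ihh together than with Vehicle, Junb was 1.35-fold lower and Fosl2 1.24-fold lower. Here and below, both ligands together means the mean of the Shh and Ihh groups, since no sample received both. These are calls of limma at a Benjamini-Hochberg adjusted p under 0.05 over all 18193 genes, of which 274 (1.51%) passed in either direction and 195 (1.07%) passed as lower. The median log2 difference of the 10 factors was -0.26, against 0.00 over all genes. On these arrays of mixed cells, fewer cells of a type and less RNA per cell cannot be told apart.

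Hedgehog signalling differed between the groups as labelled. Ptch1, the hedgehog receptor and a direct target of the pathway, lay at 10.35 to 10.88 with Shh and 10.49 to 10.98 with Ihh, against 9.06 to 9.25 with Vehicle, in log2 units. Its log2 difference was 1.48 for both ligands against Vehicle (SE 0.14, limma adjusted p = 0.000622). The mesenchyme markers Vim (12.97 to 13.10), Col3a1 (13.14 to 13.43) and Pdgfra (11.73 to 12.06) were high on all 9 arrays. All 12 mesenchyme markers lay above the array median on every array, the dimmest being Foxf2 at 7.24 to 7.63, and with both ligands 1 passed as higher, Tcf21 (0.47, limma adjusted p = 0.0197), and 0 as lower. Of 12 immune cell markers 10 lay above the array median on every array, with Csf1r, the receptor that macrophages depend on, at 12.00 to 12.35 and Ptprc, the pan-leukocyte antigen, at 9.41 to 9.88. The B cell markers Cd79a (4.51 to 4.91) and Ms4a1 (4.05 to 4.26) lay below it on every array. Some epithelial markers varied widely within every group, with Cdh1 (E-cadherin) at 4.94 to 8.37 with Shh, 6.38 to 7.98 with Ihh and 4.71 to 8.28 with Vehicle. Others varied little over the 9 arrays, such as Epcam (7.72 to 7.98), Cdx1 (3.97 to 4.38) and Cdx2 (4.49 to 4.89). Of the 11 epithelial markers measured, 0 passed limma's test (0 at an unadjusted p under 0.05).

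Most of the factors were well expressed in every culture. Fosl2, Jun and Jund stood highest among all genes of an array, at percentiles of 93.3 to 95.8, 92.9 to 95.5 and 93.1 to 94.8. Fos lay at percentiles 88.8 to 94.0 and Egr1 at 86.9 to 93.7, and Junb (68.6 to 79.1), Atf3 (63.8 to 70.3) and Fosl1 (53.5 to 64.6) were intermediate. Egr2 lay at percentiles 41.6 to 49.5 of the genes, each at its brightest probe set, while Fosb lay at only 8.73 to 15.0. Against the median of all probe sets on the array (5.87 to 5.92), Fosb was below on 9 of 9 arrays, and the other 9 factors were above it on every array. Because probe sets differ in brightness for reasons other than RNA amount, these ranks place a gene on the arrays and do not order the factors by transcript number.

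**Figure D1:**
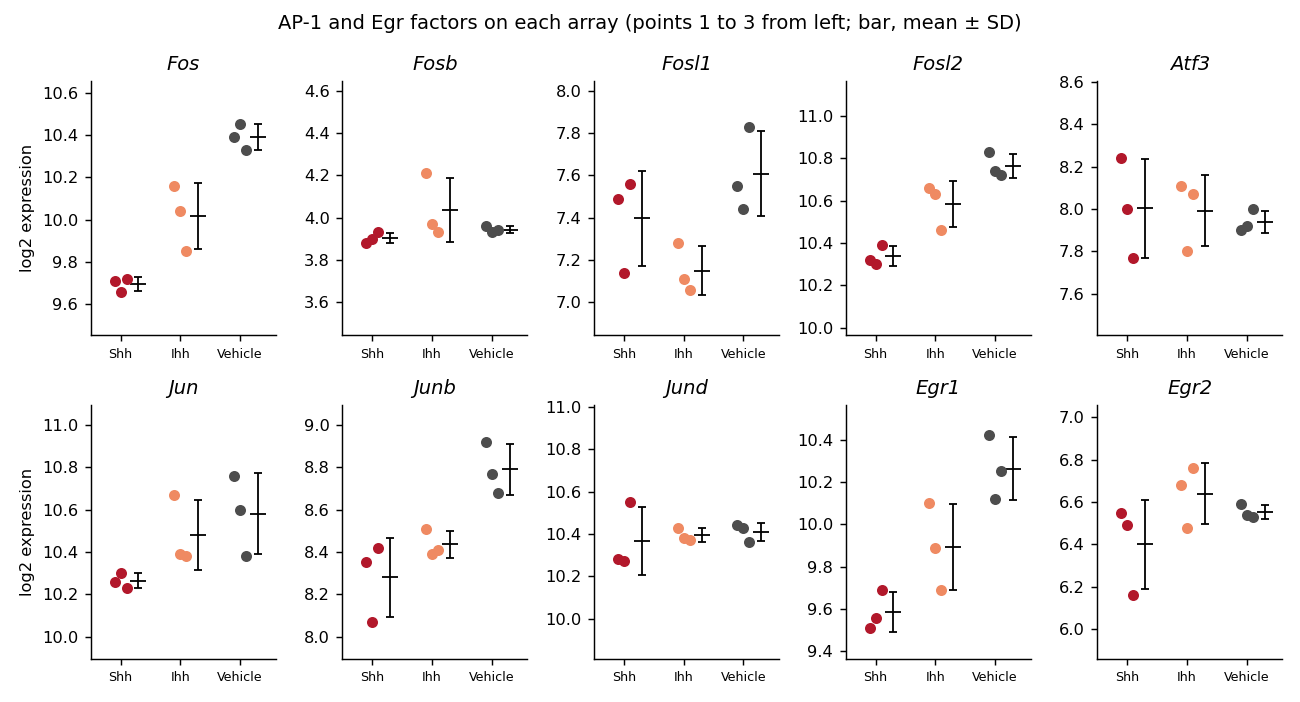
Log2 expression of the 10 factors on each array, 1 panel per gene with the y axis spanning the same 1.2 log2 units, for Shh, Ihh and Vehicle from left to right. Points are arrays 1 to 3 of a group, and the bar beside them is the mean ± SD (n = 3). Fos, Fosl2, Junb and Egr1 have all 6 treated arrays below all 3 Vehicle arrays.

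Fos, the founding partner of Jun in AP-1, measured 9.71, 9.66 and 9.72 in the 3 Shh samples and 10.16, 10.04 and 9.85 in the 3 Ihh samples, against 10.39, 10.45 and 10.33 in the 3 Vehicle samples. The groups formed 3 steps without overlap, Shh lowest, Ihh between and Vehicle highest, and the Ihh samples were the most scattered. The log2 difference of Fos for both ligands together was -0.53 (SE 0.07, 95% interval -0.68 to -0.38, limma adjusted p = 0.00406). By p Fos ranked 63 among the 18193 genes. The call held when any 1 of the 9 arrays was left out, with adjusted p between 0.00393 and 0.0374.

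Fosl2 (Fra-2), a Fos relative that lacks the strong activation domain of Fos, measured 10.32, 10.30 and 10.39 in Shh samples and 10.66, 10.63 and 10.46 in Ihh samples, against 10.83, 10.74 and 10.72 in Vehicle samples. The 3 groups again did not overlap, over a narrower range than for Fos. The log2 difference for both ligands was -0.30 (SE 0.06, limma adjusted p = 0.0348). A second, much dimmer Fosl2 probe set, at 6.52 to 6.89 on all arrays, differed by 0.01 (limma adjusted p = 0.985), so the probe sets of Fosl2 disagreed. The call of Fosl2 ended when the mean of its probe sets was used (-0.15, adjusted p = 0.205), when every probe set was tested singly (adjusted p = 0.0511), and without Ihh 2, Ihh 3, Shh 1, Shh 2, Shh 3, Vehicle 1 or Vehicle 2 (adjusted p up to 0.155).

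Fosl1 (Fra-1), which is itself an AP-1 target in many cells, measured 7.49, 7.14 and 7.56 in Shh samples and 7.28, 7.11 and 7.06 in Ihh samples, against 7.55, 7.44 and 7.83 in Vehicle samples. Here the Ihh samples were lowest and lay below all Vehicle samples, while Shh samples overlapped both other groups. The log2 difference for both ligands was -0.34 (95% interval -0.58 to -0.09, limma adjusted p = 0.198), and its dimmer probe set gave -0.28 (limma adjusted p = 0.568). On that dimmer probe set the order differed. Its Ihh samples (5.59 to 5.73) lay within the range of Vehicle samples (5.36 to 6.19), and Shh samples lay at 5.27 to 5.85. Without Vehicle 3 the difference of Fosl1 was -0.22. Fosb, the remaining Fos relative, lay at 3.88 to 3.93 in Shh samples and 3.93 to 4.21 in Ihh samples, against 3.93 to 3.96 in Vehicle samples. At that level, low on every array, the difference was 0.03 (limma adjusted p = 0.902), and RMA compresses changes of such dim probe sets.

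Among the Jun proteins, Junb was the one that passed the test. Junb, which can restrain Jun and also drives cytokine genes, measured 8.35, 8.07 and 8.42 in Shh samples and 8.51, 8.39 and 8.41 in Ihh samples, against 8.92, 8.77 and 8.68 in Vehicle samples. All treated samples lay below all Vehicle samples, and the Shh and Ihh samples overlapped. The log2 difference for both ligands was -0.43 (SE 0.08, limma adjusted p = 0.0363). Without Ihh 2, Ihh 3, Shh 1, Vehicle 1 or Vehicle 2 the call of Junb ended (adjusted p up to 0.161).

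Jun, the main dimer partner of Fos, measured 10.26, 10.30 and 10.23 in Shh samples and 10.67, 10.39 and 10.38 in Ihh samples, against 10.76, 10.60 and 10.38 in Vehicle samples. The Shh samples were the lowest and close together, and Ihh and Vehicle samples overlapped. The log2 difference for both ligands was -0.21 (95% interval -0.41 to -0.0042, limma adjusted p = 0.352), and its second probe set gave -0.16 (limma adjusted p = 0.312). Without Vehicle 1 the difference of Jun was -0.12. Jund, the Jun protein that resting cells hold at a steady level, measured 10.28, 10.27 and 10.55 in Shh samples and 10.43, 10.38 and 10.37 in Ihh samples, against 10.44, 10.43 and 10.36 in Vehicle samples. The Jund groups overlapped on all sides, with a difference of -0.03 whose 95% interval was -0.17 to 0.12 (limma adjusted p = 0.920).

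Atf3, a stress-induced factor that pairs with Jun proteins and restrains inflammatory genes in macrophages, measured 8.24, 8.00 and 7.77 in Shh samples and 8.11, 7.80 and 8.07 in Ihh samples, against 7.90, 7.92 and 8.00 in Vehicle samples. Vehicle samples lay within the spread of the treated samples. The log2 difference was 0.06, with a 95% interval of -0.17 to 0.28 (limma adjusted p = 0.879).

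The Egr factors parted. Egr1, a zinc finger activator of growth factor and matrix genes, measured 9.51, 9.56 and 9.69 in Shh samples and 10.10, 9.89 and 9.69 in Ihh samples, against 10.42, 10.12 and 10.25 in Vehicle samples. All treated samples lay below all Vehicle samples, with the highest treated sample, Ihh 1, just under the lowest Vehicle sample. The log2 difference for both ligands was -0.52 (SE 0.09, limma adjusted p = 0.0296). Without Ihh 2, Shh 1, Shh 2, Vehicle 1, Vehicle 2 or Vehicle 3 the call of Egr1 ended (adjusted p up to 0.137). Egr2, which is best known from Schwann cells and macrophages, measured 6.55, 6.49 and 6.16 in Shh samples and 6.68, 6.48 and 6.76 in Ihh samples, against 6.59, 6.54 and 6.53 in Vehicle samples. Its groups overlapped, and the difference was -0.03 for the brighter and -0.05 for the dimmer probe set (limma adjusted p = 0.938 and 0.865 with every probe set tested singly).

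Every treated sample lay below every Vehicle sample for 4 of the 10 factors, the same 4 that passed the test, and for 692 of 18193 genes (3.8%). With each of the 45037 probe sets that are not array controls tested singly, Fos (limma adjusted p = 0.00697), Egr1 (0.0392) and Junb (0.0488) passed, against 0.804% of all probe sets.

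**Figure D2:**
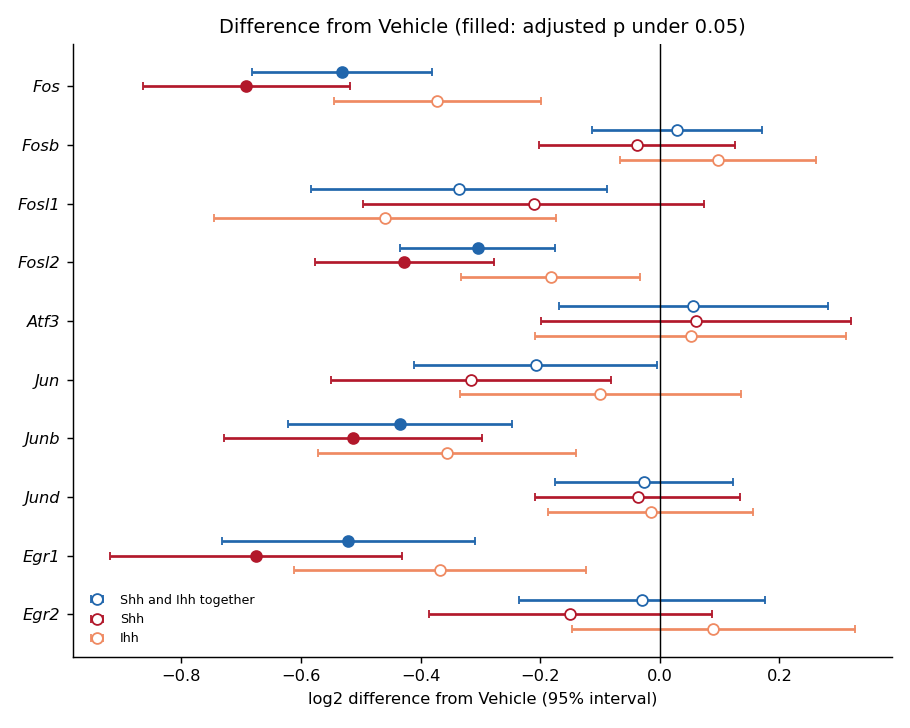
Log2 difference from Vehicle of each factor, for Shh and Ihh together, Shh alone and Ihh alone, with the 95% interval of the limma fit, and filled points where the adjusted p was under 0.05. Fos, Fosl2, Junb and Egr1 have filled points for Shh and Ihh together and for Shh, and no factor has one for Ihh alone.

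Taken by ligand, Shh lowered the same 4 factors, of 314 genes (1.73%) called in that comparison. Fos was 1.61-fold lower with Shh than with Vehicle (log2 difference -0.69, SE 0.08, limma adjusted p = 0.00336), and Egr1 1.60-fold lower (-0.68, SE 0.11, limma adjusted p = 0.0190). Junb was 1.43-fold lower (-0.51, SE 0.10, limma adjusted p = 0.0338) and Fosl2 1.34-fold lower (-0.43, SE 0.07, limma adjusted p = 0.0167). All 3 Shh samples lay below all Vehicle samples for 6 of the 10 factors, against 11.4% of all genes. The other two were Jun, with a difference of -0.32 (limma adjusted p = 0.153), and Fosb, whose groups met at the same value to 2 decimals (-0.04, adjusted p = 0.823). Without Shh 1, Shh 2 or Vehicle 1 only Fos passed, and without Vehicle 2 only Fos and Egr1. Junb also lost its call without Ihh 2 and in a fit of the Shh and Vehicle arrays alone (adjusted p = 0.0734), and Fosl2 with the mean of its probe sets (0.0832).

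Ihh gave 0 called factors by limma, where 118 of all genes (0.649%) were called. At an unadjusted p under 0.05, 5 of the 10 were lower with Ihh than with Vehicle, against 5.63% of all genes. Their log2 differences were -0.37 for Fos (95% interval -0.55 to -0.20, limma adjusted p = 0.0794), -0.37 for Egr1 (adjusted p = 0.257), -0.46 for Fosl1 (0.224), -0.36 for Junb (0.207) and -0.18 for Fosl2 (0.398). The dimmer probe sets of Fosl1 and Fosl2 gave -0.20 and 0.05 with Ihh (limma adjusted p = 0.855 and 0.940 with every probe set tested singly). With a trended and robust variance 1 factor passed, Fos, and with array weights Fos and Junb did.

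The ligands were also set against each other directly, since both comparisons with Vehicle use the same 3 Vehicle arrays. No factor differed between Shh and Ihh at the threshold by limma, where 2 of all genes (0.011%) did. At an unadjusted p under 0.05, 4 of the 10 factors were lower with Shh than with Ihh, against 5.97% of all genes. Fos differed by -0.32 (95% interval -0.49 to -0.15, limma adjusted p = 0.285), Fosl2 by -0.24 (-0.39 to -0.10, adjusted p = 0.290) and Egr1 by -0.31 (-0.55 to -0.06, adjusted p = 0.320, or -0.20 without Ihh 1). Egr2, the fourth, differed by -0.24 (-0.48 to -0.0019, adjusted p = 0.379), or -0.12 without Shh 3. In Fos, Fosl2 and Jun all 3 Shh samples lay below all 3 Ihh samples, while in Egr1 and Fosb the highest Shh sample and the lowest Ihh sample had the same value to 2 decimals. Of all genes, 7.93% had every Shh sample below every Ihh sample. The missed threshold does not show that the ligands act alike. The 95% intervals for Fos, Fosl2, Egr1 and Egr2 lie below 0, but they are not adjusted for the number of genes tested, so they do not show a difference either.

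**Figure D3:**
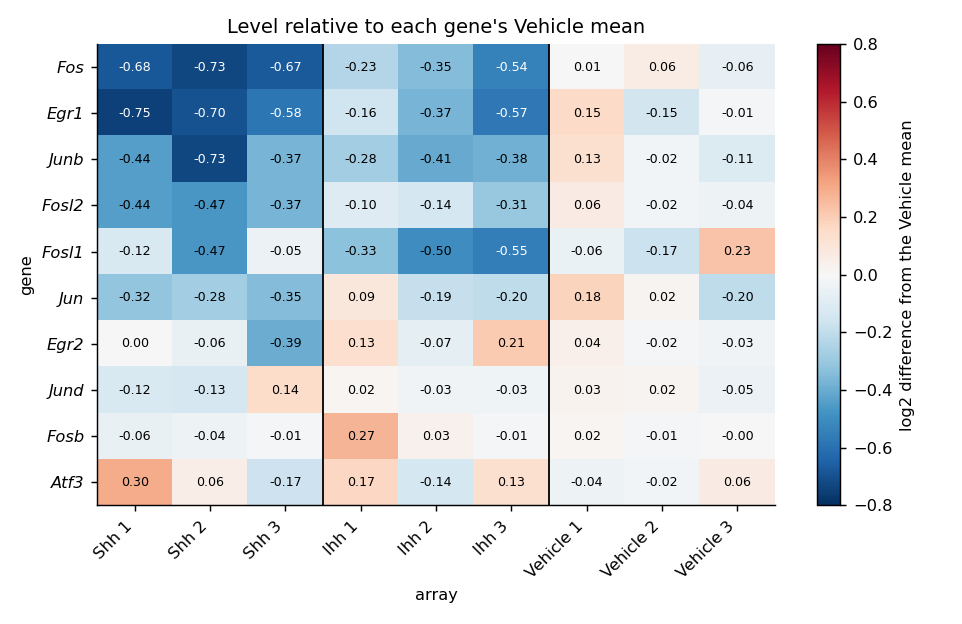
Log2 level of each factor on each of the 9 arrays relative to its own Vehicle mean (blue lower, red higher), Shh, Ihh and Vehicle arrays from left to right. Fos runs from -0.73 to -0.67 on Shh arrays and from -0.54 to -0.23 on Ihh arrays, against -0.06 to 0.06 on Vehicle arrays, while the rows of Jund and Atf3 hold both signs in the treated arrays.

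The arrays differed within the Ihh group. Ihh 1 was the highest of the 6 treated arrays for Fos, Egr1, Fosl2, Junb, Jun and Fosb. On the same array the endothelial marker list averaged 9.06 and the neural list 8.47, the highest of the treated arrays for both, against 8.85 to 9.14 and 8.23 to 8.49 on Vehicle arrays. The Gapdh 3' minus 5' log2 signal, a measure of RNA integrity, was -0.15, -0.16 and -0.18 on Shh arrays and -0.04, -0.17 and -0.19 on Ihh arrays, against 0.03, -0.08 and -0.05 on Vehicle arrays. The same measure for actin overlapped between the groups, at 0.15, 0.17 and 0.14 on Shh arrays and 0.18, 0.16 and 0.12 on Ihh arrays, against 0.28, 0.15 and 0.19 on Vehicle arrays. Immune markers moved as well: Adgre1 (F4/80), Itgam (Cd11b) and Cd14 fell, Laptm5 rose, and the other 8 of 12 did not pass. The mean log2 level of the immune list did not overlap, at 8.62 to 8.71 on treated arrays and 8.90 to 9.01 on Vehicle arrays. Its summed level, on the linear scale, where bright genes weigh most, did overlap. That sum was 13887.9 to 14776.5 on treated arrays and 14477.4 to 15841.8 on Vehicle arrays. With both ligands together all 7 endothelial markers had differences below 0, with 0 past the test by limma. At an unadjusted p under 0.05, 4 of them were lower, against 8.41% of all genes. Their summed level was 3143 to 4441 on treated arrays and 3944 to 4720.4 on Vehicle arrays. With Shh alone, the endothelial list had a median log2 difference of -0.52, with 4 of 7 markers lower at an unadjusted p under 0.05 and 1 past the test, Cdh5 (-0.59, limma adjusted p = 0.0464). The neural list had a median of -0.44 with Shh, beside a median of -0.26 for the 10 factors. Of its 5 markers, 4 were lower at an unadjusted p under 0.05, and 0 passed the test by limma. The remaining marker, Ret, went the other way (0.39, limma adjusted p = 0.0759). At an unadjusted p under 0.05, 3420 of 18193 genes differed with Shh in either direction. The genes lower with Shh at that level were not counted apart, so the endothelial and neural counts have no like share beside them. The part of these differences in the lower Fos, Egr1, Junb and Fosl2 was not tested.

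The genes whose pattern over the 9 arrays was most like that of Fos were found by the root mean square difference between deviations from each gene's own mean, over 9088 non-member genes brighter than the median gene. They were Upp1, uridine phosphorylase (0.0801), Ereg, the EGF receptor ligand epiregulin (0.0833), and Adamts4, a proteoglycan-cleaving protease (0.0855). Their log2 differences for both ligands against Vehicle were -0.52 for Upp1 (limma adjusted p = 0.0197), -0.44 for Ereg (0.0600) and -0.37 for Adamts4 (0.0364). Among the factors themselves Egr1 was nearest to Fos (0.0987), followed by Fosl2 (0.120), Junb (0.133) and Jun (0.184). Fosb (0.280), Jund (0.283), Egr2 (0.289), Fosl1 (0.295) and Atf3 (0.349) were the farthest.

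The stretch of 150 bases before the start of transcription is shown for 3 of the called factors, from the RefSeq promoter table of GRCm38.p6. They are Fos at chr12:85473740-85473889 on the plus strand, Junb at chr8:84978749-84978898 on the minus strand and Fosl2 at chr5:32136322-32136471 on the plus strand. These genes were chosen because they passed the test with both ligands together. Egr1, the remaining called factor, was not among the promoters searched, so nothing is said here about its motifs. Capitals mark the motifs searched for on both strands: TGACG (part of the CRE, the cAMP response element), TATAAA (the TATA box) and GCGNGGGCG (the Egr element).
Fos: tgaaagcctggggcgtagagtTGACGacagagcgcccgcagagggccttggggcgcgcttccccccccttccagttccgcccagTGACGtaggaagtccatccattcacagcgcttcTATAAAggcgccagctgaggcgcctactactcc
Junb: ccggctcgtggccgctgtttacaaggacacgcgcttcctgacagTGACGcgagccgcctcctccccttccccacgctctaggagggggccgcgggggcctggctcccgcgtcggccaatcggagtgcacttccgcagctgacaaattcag
Fosl2: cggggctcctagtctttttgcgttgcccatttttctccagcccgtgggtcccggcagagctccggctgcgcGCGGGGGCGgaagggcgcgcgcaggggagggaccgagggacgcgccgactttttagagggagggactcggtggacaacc
The Fos stretch holds TGACG at 129 and 66 bases before the start and TATAAA at 33, the Junb stretch holds TGACG at 106, and the Fosl2 stretch holds the Egr element at 79. Over all promoters searched, in windows of 300 bases, 20.8% of 32851 hold TGACG, 13.6% hold TATAAA and 5.55% hold the Egr element. TGACG was added to the search after the sequences had been seen.

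Of the 10 factors, the promoters of 8 were searched, and those of Egr1 and Fosl1 were not. None of the 8 holds the full CRE TGACGTCA (1.79% of all promoters) or the AP-1 element TGANTCA (7.81%) in these windows. The Egr element is in the promoters of Fosl2 and Fosb, and TGACG is in those of Fos, Junb, Fosb, Atf3 and Egr2. TATAAA is in those of Fos and Junb, and in Junb it begins at the first base from the listed start. Which start Junb used in these cells was not measured, so this match cannot be placed relative to the start in use. The CArG box that SRF binds, in 1.63% of all promoters, is in 1 of the 8, Egr2. It is the only factor with several listed starts, with 5 windows searched, while the 1.63% is a share of single windows. CCTTTTTTGG lies 72 bases before start 2, and CCATATATGG lies 72, 73 and 133 bases before starts 3, 4 and 5. These matches describe letters in a window near the start and leave the more distant control regions unseen.

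The other genes of the pathway came from lists of bZIP partners, other Egr and Nab genes, upstream kinases and SRF cofactors, other immediate early genes, and known targets. Of 22 other bZIP factors measured, 1 fell and 0 rose with both ligands. Cebpb, a bZIP factor of inflammatory and acute-phase genes, lay at 10.43 to 10.79 on treated arrays and 11.22 to 11.37 on Vehicle arrays. It was lower by a log2 difference of -0.62 (limma adjusted p = 0.00396) and passed with each ligand, at -0.68 with Shh and -0.57 with Ihh. Nfe2l1 (-0.20, limma adjusted p = 0.119) and Batf3 (0.27, adjusted p = 0.127) came next by p and did not pass. Of the 4 genes Egr3, Egr4, Nab1 and Nab2, none passed by limma with both ligands (2 were lower at an unadjusted p under 0.05), with differences of -0.23 for Nab1, -0.14 for Nab2 and 0.07 for Egr4. Nab1, a corepressor of Egr1, passed with Shh (-0.30, limma adjusted p = 0.0427).

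Of 37 other immediate early genes 1 fell, 0 rose, and 34 had differences below 0, with a list median of -0.15. Nfil3, a bZIP repressor induced by cytokines, was 1.57-fold lower with both ligands (log2 difference -0.65, limma adjusted p = 0.0100). With Shh, 4 of the 37 fell, Nfil3 at -0.88, Dusp2 (a MAP kinase phosphatase) at -0.52, Trib1 at -0.51 and Ier2 at -0.46. Of 22 upstream genes 0 passed with both ligands by limma, and 5 were lower at an unadjusted p under 0.05, against 8.41% of all genes. Mapkapk2, a kinase downstream of p38, fell with Shh (-0.43, limma adjusted p = 0.0379), and for both ligands the differences were -0.33 for Mapkapk2, -0.25 for Map2k1 and -0.35 for Mrtfa, a cofactor of SRF, with adjusted p of 0.0594, 0.0612 and 0.0706.

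**Figure D4:**
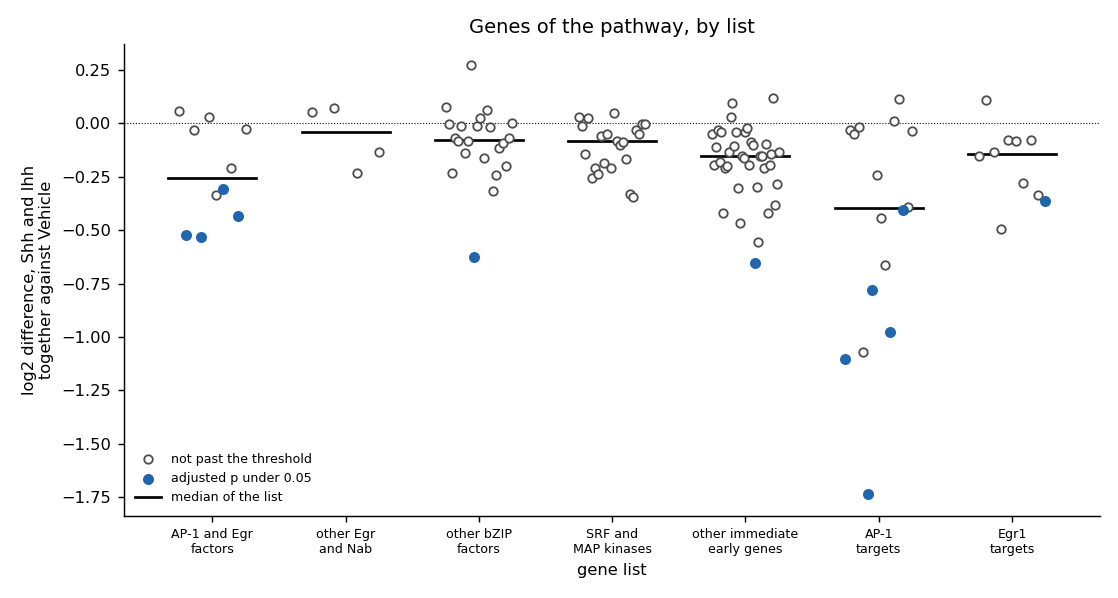
Log2 difference of each gene for Shh and Ihh together against Vehicle, by gene list. Open points did not pass the test, filled points had an adjusted p under 0.05, and bars are list medians, which were -0.26 for the AP-1 and Egr factors, -0.40 for AP-1 targets and -0.14 for Egr1 targets.

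Of 16 measured AP-1 targets 5 fell and 0 rose, with a median of -0.40. Il6, the inflammatory cytokine, lay at 5.00 to 5.43 in Shh samples and 5.47 to 6.21 in Ihh samples, against 7.08 to 7.69 in Vehicle samples. The log2 difference with both ligands was -1.74 (SE 0.19, limma adjusted p = 0.00172). The Shh samples and the lowest Ihh sample lay below the array median, where RMA flattens differences. Ccl2, a chemokine for monocytes, fell by 1.10 on the log2 scale, Mmp9, a matrix protease, by 0.98, Lif, a cytokine of the same family as Il6, by 0.78, and Timp1, an inhibitor of matrix proteases, by 0.40. Il6, Ccl2, Mmp9 and Lif passed with each ligand, and Timp1 passed with Shh (limma adjusted p = 0.0241) and not with Ihh (0.0618). Of 10 Egr1 targets 1 fell and 0 rose. Thbs1, the matrix protein thrombospondin 1, fell by 0.36 on the log2 scale (limma adjusted p = 0.0252). By ligand, Thbs1 passed with Ihh (-0.41, limma adjusted p = 0.0429) and not with Shh (-0.32, adjusted p = 0.0650), unlike Egr1, which passed with Shh and not with Ihh. Flt1, a VEGF receptor that endothelial cells carry, fell with Shh by 0.79. Pdgfb, a growth factor chain, differed by -0.28 with both ligands and did not pass (limma adjusted p = 0.129). The target lists are textbook ones chosen with earlier results of these data known, so their direction is a description.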

How the data were processed

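Expression of 9 samples was measured on Affymetrix arrays from 6 ug of total RNA each, with 3 arrays for Shh, Ihh and Vehicle. The authors deposited 1 log2 value per probe set and array, a scale read from the range of the values. GCOS and RMA (background correction, normalization between arrays and a summary of probes) are named per the submitters' processing notes, and their versions were not given in the sources used here. RMA forces the arrays onto 1 distribution, which hides any shift common to every gene, and flattens low levels. The number of arrays limits the precision.

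Of the 45101 probe sets, 34945 have 1 platform symbol, 932 several and 9160 none, and 64 are controls. Older symbols of 4 listed genes were updated through RefSeq synonyms. For each of 18193 genes the brightest single-symbol probe set, by its mean over the arrays, was used. The limma 3.58.1 functions lmFit and eBayes (R 4.3.3) fitted 3 group means over the 9 arrays, with 6 residual and 3.88 prior degrees of freedom. In each of 4 comparisons, two-sided p-values were Benjamini-Hochberg adjusted across every gene, at a threshold of 0.05. The fit was tested on simulated data.

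Named outside the 10 factors were, from each pathway list, the 3 genes with the smallest p and any past the threshold, Ptch1, and the 3 genes most like Fos. Cell type markers are given as counts, with defining and called ones named. Foxf2, Cd79a, Ms4a1, Cdh5, Epcam, Cdx1, Cdx2 and Ret were picked with their values known. The factors and lists were chosen with earlier results of these data known. Alternatives were another quantile normalization, centring on array medians, a filter at the 40th percentile, other choices of probe set, other variance settings, array weights, a replicate block and leaving out each array. No batch or scan date was given in the sources used here.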

Additional observations from a re-analysis of the deposited data

How the results depend on the processing

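Fos passed in both ligands together and in Shh alone under all alternatives run. The number of called factors, 4 in each of these comparisons, was 1 to 4 with 1 array left out. With Ihh, 0 became 1 with a trended and robust variance and 2 with array weights. Replicate numbers name random pools: over the 9 pairs of same-numbered arrays the correlation of deviations ran from -0.297 to 0.543, and 4 pairs were over 0.1. With replicate number as a block, 4 factors passed for both ligands, and the count over all genes was 379 in place of 274 for both ligands and 522 in place of 314 for Shh. Array weights gave 1126, 1017 and 498 genes for both ligands, Shh and Ihh (118 without weights). Leaving out 1 array gave 99 to 416, 80 to 675 and 53 to 229 genes, and for Shh against Ihh 1 to 2, with 0 when only the groups compared were fitted. Uncalled differences near 0 changed sign. For Jund with a second quantile normalization they were 0.00719 (both ligands), 0.00729 (Shh), 0.00709 (Ihh) and 0.000199 (Shh against Ihh), and 0.0133 with array weights for Shh against Ihh. With 1 array left out they ran from -0.0028 to 0.113 (both), -0.0569 to 0.175 (Shh), -0.00571 to 0.146 (Ihh) and -0.108 to 0.124 (Shh against Ihh) for Atf3, from -0.0685 to 0.031 for Egr2 and from -0.014 to 0.0567 for Fosb (both), and from -0.128 to 0.0111 (Shh) and -0.113 to 0.0264 (Shh against Ihh) for Jund. The cause was not tested. The dim level of Fosb, below the array median on every array, limits what its difference shows.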
